A study of Mus musculus with 16 samples.

Results

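The hippocampi of Dp16 mice were compared with those of wild-type mice by RNA sequencing of polyadenylated transcripts, with 4 libraries of each genotype. The libraries were chosen by their genotype label, 8 of the 16 in the series. Wild-type mice were of strain C57BL/6J. Dp16 mice carry a duplication of a segment of chromosome 16 and so have 3 copies of its genes in place of 2, and neither group carried a transgene. The sources used here do not name the background strain of the Dp16 mice. All mice were 5 months old, and wild-type and Dp16 each had 2 females and 2 males. The other 8 libraries were 4 from 5xFAD mice, again 2 of each sex, which carry human transgenes with familial Alzheimer disease mutations, and 4 from males of the 5xFAD-Dp16 cross. They shared in the estimate of the spread between libraries and gave a second pair of groups with and without the duplication. Whether the libraries of a group are separate mice is not stated in the labels, and a p-value here reflects only how much these libraries differ, which may be technical.

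Trisomy 21 adds a copy of every gene on human chromosome 21, and a gene present in an extra copy is, on average, transcribed in proportion to its copies. Most mouse orthologues of human chromosome 21 genes lie together on mouse chromosome 16, and smaller groups lie on chromosomes 10 and 17. Dp16 duplicates the chromosome 16 part by a rearrangement within the chromosome, without an extra chromosome, and leaves the other two groups at their normal dose. The segment holds App, the precursor of the amyloid peptide, the kinase gene Dyrk1a, the calcineurin inhibitor gene Rcan1 and a cluster of interferon receptor genes. In the hippocampus these genes are studied for their part in learning deficits and in the early Alzheimer pathology of Down syndrome.

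The 8 libraries held between 17.4 and 24.1 M counts (M, mega), with means of 22.0 ± 1.34 M in wild-type and 20.4 ± 3.04 M in Dp16 (SD, n = 4 each). Dentate gyrus, CA1, CA3 and excitatory neuron markers were expressed in every library. Wild-type replicate 4 stood apart. The summed CPM (counts per M counts, here of the library's raw total) of 20 midbrain and hypothalamus markers was 386 in that library and 7.66 to 20.7 in the other 7, with Foxa2 at 0 in all 8, and its level of hippocampal neuron markers was the lowest of the 8. Its summed CPM of striatum markers was 626, beside 109 to 197 in the other 7, and of thalamus markers 488, beside 199 to 324. Choroid plexus markers, 11 of 11 tested, split both groups: their summed CPM was 154, 6788, 3825 and 50.8 in wild-type replicates 1 to 4 and 2037, 87.6, 66.5 and 3694 in Dp16 replicates 1 to 4. For many of the genes and lists that move with either, values with that library left out or values per library are given below. In these bulk samples, fewer cells of a type and less RNA per cell cannot be told apart.

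Of 16684 genes tested with the quasi-likelihood test of edgeR, 14 (0.0839%) were called in Dp16 against wild-type, with a Benjamini-Hochberg adjusted p under 0.05. All 14 were higher in Dp16, and 13 of them lay in the segment. The fourteenth was a, the agouti signalling protein gene, on chromosome 2. No gene passed as lower (0.0%), while 302 lower and 250 higher genes had an unadjusted p below 0.05, 3.31% of those tested in all. DESeq2, run as an alternative, called 38 genes (0.228%), 30 of them in the segment, and kept all 14. Leaving out 1 library at a time gave 3 to 17 calls: 3 without Dp16 replicate 3 or wild-type replicate 2, 5 without Dp16 replicate 1 or 2 or wild-type replicate 1, 8 without Dp16 replicate 4, and 9 without wild-type replicate 3 or 5xFAD-Dp16 replicate 1 or 4. A fit of the 8 libraries alone called 4, and 39 were called without 4 libraries that earlier work on these files had set aside for midbrain genes (wild-type replicate 4, 5xFAD replicates 2 and 4 and 5xFAD-Dp16 replicate 3). The level of midbrain and hypothalamus markers was high in 3 of these (1.89, 3.01 and 1.45) but -0.36 in 5xFAD replicate 4, beside at most -0.32 in the other 12 libraries. Without the filter on low counts 210 of 30883 genes were called, 157 of them lower in Dp16. DESeq2 called 5 genes as lower: Cbs, Pik3r3, Rfx5, Fam181a and Gm49980, the last named after its values were seen. In counts simulated for the same groups, 37.3% of genes changed 1.5-fold were recovered, 61.2% of those changed 2-fold and 86.4% of those changed 4-fold, with 6 false calls among 16684 genes. The simulated counts were drawn independently for each gene. They lack tissue differences that many genes share, such as those of wild-type replicate 4, so recovery in the real libraries may differ.

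The segment runs from Lipi to Zbtb21, positions 75540514 to 97962622 of chromosome 16 on build GRCm38, over 22.42 Mb. The annotation places 384 genes there, of which 147 are protein-coding. Of these 384 genes, 191 had 0 counts in all 8 libraries, and 105, of which 90 are protein-coding, were expressed highly enough to be tested. Lipi itself, a phospholipase gene at the start of the segment, had 0, 0, 1 and 0 counts in wild-type and 1, 4, 1 and 1 in Dp16 and was among the 279 not tested. The median log2 fold change of the 105 tested genes was 0.52, or 1.43-fold, with quartiles of 1.29-fold and 1.57-fold, and the median of all other genes was -0.014. The ratio of 3 copies to 2 is 0.58 on this scale. Dropping wild-type replicate 4, or the 4 libraries set aside above, raised the segment median to 0.58. Dropping wild-type replicate 1 lowered it to 0.45, and so did keeping the genes of low counts. With any other single library dropped it stayed between 0.51 and 0.53. A positive fold change was fitted for 95 of the 105 (90.5%), against 46.6% of the other genes. In 54 of the 105 all 4 Dp16 libraries lay above all 4 wild-type libraries (51.4%, beside 1.37% of all genes tested), and in 0 did they all lie below (beside 1.55%).

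Per library, the median over segment genes of log2 CPM relative to the wild-type mean was -0.10, 0.022, 0.018 and 0.10 in wild-type replicates 1 to 4. In Dp16 replicates 1 to 4 it was 0.60, 0.51, 0.54 and 0.58. The 4 Dp16 libraries lay close together and far above the highest wild-type library, which was replicate 4. The rest of chromosome 16, with 404 tested genes, had a median log2 fold change of -0.0026 and no gene called by edgeR or DESeq2, with 14 (3.47%) at an unadjusted p below 0.05. Over the 20 chromosomes compared, with this rest of chromosome 16 as one of them, medians ran from -0.031 on chromosome 3 to 0.011 on chromosome 18.

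**Figure D1:**
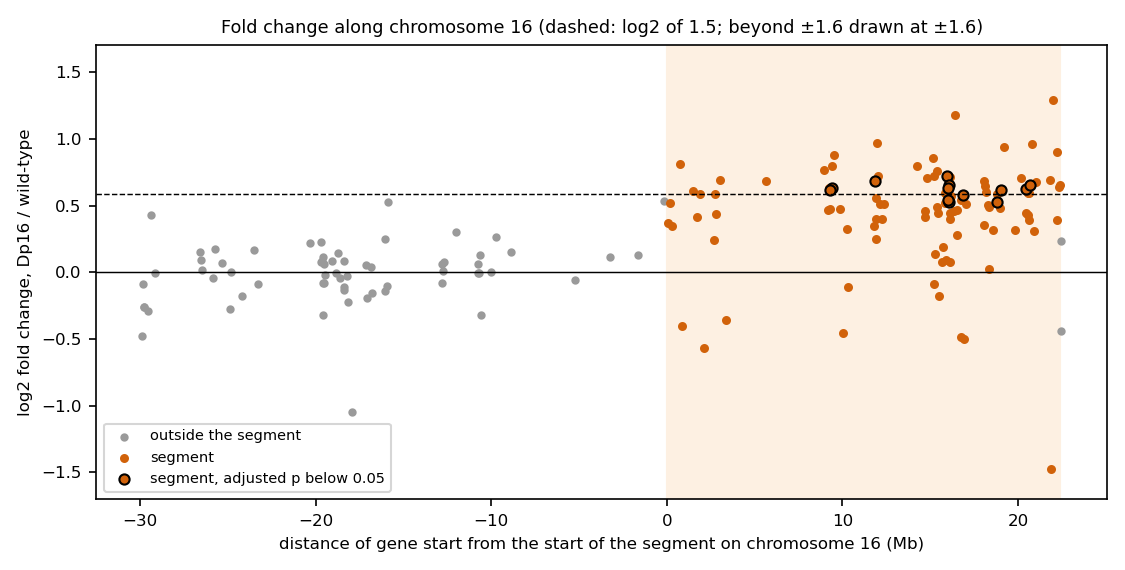
Log2 fold change of Dp16 against wild-type for each tested gene of chromosome 16, plotted against the distance of its start from the start of the segment in Mb; the shaded band is the segment, orange points are its genes, and black rings mark those with an adjusted p below 0.05. Grey points outside the band scatter around 0, with a median of -0.0026 over the whole outside part of the chromosome, while 95 of the 105 orange points lie above 0.

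The genes on either side of each border of the segment were set side by side. The tested genes next before Lipi were Robo1 and Robo2, axon guidance receptor genes, and the clone-named Gm49678. Robo1 had a log2 fold change of 0.12 ± 0.19 (SE) and Robo2 of 0.13 ± 0.16, and their libraries overlapped between the groups. Gm49678, at about 1 CPM, had 0.54 ± 0.39. The first tested genes inside were Rbm11, Hspa13 and Samsn1, with 0.37 ± 0.19, 0.52 ± 0.14 and 0.35 ± 0.20. Without wild-type replicate 4, Hspa13 had 0.68 (adjusted p = 0.0319). At the other end Prdm15, C2cd2 and Zbtb21 had 0.39 ± 0.15, 0.64 ± 0.12 and 0.65 ± 0.14. Only 2 tested genes follow Zbtb21, and their values went either way: -0.44 ± 0.34 for B230307C23Rik and 0.24 ± 0.40 for A630089N07Rik. In 4 equal parts of the segment, of 27, 26, 26 and 26 genes in order of position, the median log2 fold changes were 0.48, 0.50, 0.52 and 0.59.

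The 13 called segment genes rose between 1.44-fold and 1.65-fold. They came from 7 of the 12 roles into which the segment's genes were sorted, and in each of the 13 the groups did not overlap. The 13 were chosen by the p of this same comparison, which favours groups that do not overlap. Over all genes tested, all 4 Dp16 libraries lay above all 4 wild-type libraries in 1.37%. Ifnar1, Rcan1 and a passed in all 25 alternative settings, while the other 11 calls ended in 2 to 15 of them. The reads of Gabpa, Ttc3 and App cannot be told apart from those of tested genes that overlap them on the other strand (Atp5j, Pigp, and Gm10791 with Gm49227), since the sources used here do not give the strand setting of the counting.

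**Figure D2:**
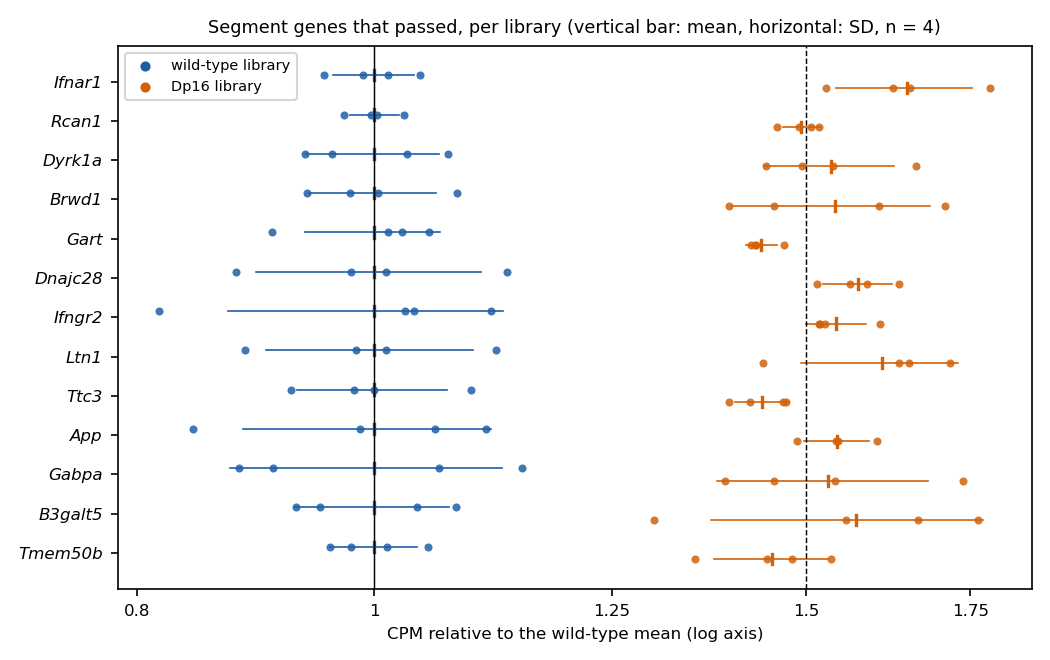
CPM of the 13 called segment genes in each library, divided by the wild-type mean of the gene, on a log axis; points are libraries, vertical bars the mean and horizontal bars the SD (n = 4), and the dashed line is 1.5. Every Dp16 point lies to the right of every wild-type point of its gene. The genes were chosen by the p of this same comparison, which favours such a gap (1.37% of all genes tested have it).

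Of the called genes, 3 are shown by the 250 bases before their RefSeq start (GRCm38.p6, plus strand, 5′ to 3′), because Gabpa encodes the DNA-binding subunit of an ETS factor and was itself called. Capitals mark CCGGAAG, the core of many ETS sites, on either strand. Ifnar1 lies at chr16:91484965-91485214, Gabpa at chr16:84834874-84835123 and Dyrk1a at chr16:94569956-94570205.
Ifnar1: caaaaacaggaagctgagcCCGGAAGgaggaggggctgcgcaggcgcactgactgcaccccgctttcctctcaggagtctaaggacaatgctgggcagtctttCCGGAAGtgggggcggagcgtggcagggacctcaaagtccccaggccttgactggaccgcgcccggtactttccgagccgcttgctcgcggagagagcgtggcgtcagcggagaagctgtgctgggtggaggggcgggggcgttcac
Gabpa: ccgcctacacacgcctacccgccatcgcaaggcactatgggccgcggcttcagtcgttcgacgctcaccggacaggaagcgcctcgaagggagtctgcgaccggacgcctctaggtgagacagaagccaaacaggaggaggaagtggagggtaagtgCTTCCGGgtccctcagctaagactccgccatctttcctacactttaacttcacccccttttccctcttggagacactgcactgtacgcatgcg
Dyrk1a: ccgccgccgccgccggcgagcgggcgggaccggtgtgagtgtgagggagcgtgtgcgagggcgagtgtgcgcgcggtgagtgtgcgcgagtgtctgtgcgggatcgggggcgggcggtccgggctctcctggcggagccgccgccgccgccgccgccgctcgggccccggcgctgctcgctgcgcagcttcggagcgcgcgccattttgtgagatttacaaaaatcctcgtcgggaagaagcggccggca
The Ifnar1 window held 2 matches, starting 231 and 147 bases before the RefSeq start. The Gabpa window held 1, on the other strand, 93 bases before its RefSeq start, and the Dyrk1a window held none. By the gene coordinates given below, from another annotation, the Gabpa and Dyrk1a windows reach into the gene, and the Gabpa match lies inside it. Of the 13 called segment genes, Ifnar1 and Gabpa were the only ones with a match (15.4%). The motif was in 14 of the 81 tested segment genes with a window in the RefSeq table (17.3%), in 12.2% of 12232 tested genes and in 7.05% of all 27025 windows. The interferon-stimulated response element, searched on both strands, was in none of the 13 and in 1 of the 81, against 12 of 31 interferon-stimulated genes with a window (38.7%) and 3.04% of all windows. These matches are descriptions of letters and not of bound sites.

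The 4 receptor genes of the segment all had positive fold changes, and 2 of them were called. Ifnar1 (chromosome 16, 91485238 to 91507441), which forms the type I interferon receptor with Ifnar2, had the smallest p of all genes. It stood at 35.5, 34.7, 36.6 and 33.5 CPM in wild-type replicates 1 to 4 (from here on scaled by TMM, the trimmed mean of M values) and at 57.1, 53.6, 57.99 and 62.6 in Dp16 replicates 1 to 4. The lowest Dp16 library was well above the highest wild-type library. The rise was 1.65-fold, with a log2 fold change of 0.72 ± 0.077 and an adjusted p of 0.00143. Ifngr2, a subunit of the interferon gamma receptor (chromosome 16, 91547072 to 91565623), stood at 70.7, 71.4, 76.7 and 56.1 CPM in wild-type and 104, 111, 105 and 104 in Dp16. Its wild-type replicate 4 was the lowest library, and it rose 1.55-fold (adjusted p = 0.0201). Ifnar2 stood at 15.7, 21.3, 18.8 and 16.5 CPM and 29.5, 22.4, 26.5 and 31.5, with the groups just apart. Its log2 fold change of 0.60 ± 0.11 had an adjusted p of 0.0681. It passed with DESeq2 (0.000784). Il10rb, shared by the receptors of interleukin 10 and of interferon lambda, stood at 5.60, 8.34, 8.64 and 8.51 CPM and 12.4, 7.82, 11.7 and 12.9. Dp16 replicate 2 lay among the wild-type libraries, and the log2 fold change was 0.52 ± 0.17 (adjusted p = 0.990).

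The interferon-induced genes within the segment were near the floor of detection. Mx1, an antiviral GTPase that is defective in many laboratory strains, had 7, 0, 1 and 7 counts in wild-type and 0, 1, 0 and 4 in Dp16. The related Mx2 had 5, 0, 7 and 5 counts in wild-type and 9, 8, 5 and 16 in Dp16. Both groups overlapped for both genes. Ripk4, a kinase gene, had a log2 fold change of 0.90 ± 0.36 and Samsn1, an adaptor gene of immune cells, of 0.35 ± 0.20, and neither passed.

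App, the amyloid precursor gene (chromosome 16, 84949685 to 85173766), was the second most abundant tested segment gene per length, at 248 RPKM (reads per kilobase of gene and per M reads) in wild-type after Sod1 at 389.8. It stood at 2258, 2006, 2151 and 1715 CPM in wild-type replicates 1 to 4 and 3134, 3142, 3257 and 3023 in Dp16. Dp16 libraries varied less than wild-type libraries, of which replicate 4 was the lowest. App rose 1.55-fold, with a log2 fold change of 0.63 ± 0.11 and an adjusted p of 0.0327. The call ended in 13 of 25 alternatives, among them the removal of any single one of the 8 libraries, while the fold change stayed between 0.56 and 0.68 on the log2 scale. Bace2, a protease gene related to the beta-secretase, stood at 5.11, 5.41, 3.83 and 6.25 CPM in wild-type and 9.11, 7.21, 8.68 and 7.90 in Dp16. The groups did not overlap, but at this level the log2 fold change of 0.69 ± 0.24 did not pass (adjusted p = 0.990).

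Among kinases and the calcineurin inhibitor, Rcan1 and Dyrk1a were called. Rcan1 (chromosome 16, 92391953 to 92470867), whose product inhibits the phosphatase calcineurin, had the smallest SE of the called genes. It stood at 50.2, 48.97, 50.5 and 51.8 CPM in wild-type and 75.03, 76.5, 73.5 and 75.9 in Dp16. That is a rise of 1.49-fold, with a log2 fold change of 0.58 ± 0.072 and an adjusted p of 0.00391. Dyrk1a (chromosome 16, 94570010 to 94695517), a kinase that acts in brain growth and phosphorylates tau and NFAT factors, stood at 101, 94.3, 105 and 91.9 CPM and 151, 147, 163 and 142. It rose 1.54-fold (log2 0.62 ± 0.083, adjusted p = 0.00715). Without Dp16 replicate 3 or without wild-type replicate 2 its adjusted p was 0.0607 or 0.0625. Hunk, a kinase of the AMPK family, had 43.96, 33.9, 38.8 and 17.2 CPM in wild-type and 58.2, 47.7, 60.97 and 46.03 in Dp16, with no overlap and a log2 fold change of 0.71 ± 0.24 (adjusted p = 0.990). Wild-type replicate 4 held its lowest value. Map3k7cl had 0.72 ± 0.49. Of 12 genes of the calcineurin and NFAT axis outside the segment, 7 had positive and 5 negative fold changes, with a median log2 fold change of 0.038, and none passed.

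All 22 tested transcription and chromatin regulators of the segment had positive fold changes, with a median of 1.40-fold, and 2 were called. Brwd1 (chromosome 16, 95992092 to 96082526), a bromodomain protein that binds acetylated histones, stood at 59.05, 57.5, 63.6 and 55.2 CPM in wild-type and 101, 85.7, 94.5 and 82.1 in Dp16. It rose 1.54-fold (log2 0.63 ± 0.089, adjusted p = 0.0115). Gabpa (chromosome 16, 84834925 to 84863779) stood at 22.1, 28.9, 26.7 and 22.9 CPM and 43.7, 36.6, 38.8 and 34.96 and rose 1.53-fold (adjusted p = 0.0439). This call ended in 15 of 25 alternatives. Morc3, a nuclear ATPase, came next, with 0.50 ± 0.10 (adjusted p = 0.109). Ets2, another ETS factor, had a log2 fold change of 0.70 ± 0.16, Bach1, a repressor of antioxidant genes, 0.52 ± 0.11, and Hmgn1, a nucleosome-binding protein, 0.59 ± 0.13. Each of these 3 had no overlap between the groups, and none passed. Nrip1, a nuclear receptor corepressor, had 0.81 ± 0.20, with wild-type replicate 4 at 32.9 CPM and the other wild-type libraries at 52.6 to 62.6.

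Olig1 and Olig2, the transcription factors that specify the oligodendrocyte lineage, had the smallest positive fold changes among segment genes of at least 10 CPM. Olig1 stood at 157, 150.4, 131 and 174 CPM in wild-type and 212, 176, 159 and 150.2 in Dp16. Olig2 stood at 50.04, 44.9, 32.2 and 45.96 CPM and 60.3, 39.3, 41.4 and 43.1. In both genes the groups overlapped: Dp16 replicates 1 and 2 lay above the wild-type libraries for Olig1, and Dp16 replicate 1 alone for Olig2. The log2 fold change was 0.19 ± 0.11 for Olig1, with a 95% interval of -0.039 to 0.42, and 0.074 ± 0.16 for Olig2, with -0.26 to 0.41. Both intervals held 0 and lay below 0.58, the log2 of 1.5. Hlcs, which attaches biotin to carboxylases, also had an interval below it, 0.064 to 0.57, but above 0. The fourth such gene was the clone-named Gm9843, -0.84 to 0.044. Myelin genes (7 of 16 positive, median -0.018) and oligodendrocyte precursor genes (7 of 12 positive, median 0.013) had medians near that of all genes. In 5xFAD-Dp16 against 5xFAD, which shares no library with these groups, the log2 fold changes of Olig1 and Olig2 were 0.52 ± 0.12 and 0.54 ± 0.17. The difference between the pairs had an unadjusted p of 0.0534 for Olig1 and 0.0689 for Olig2, and the smallest adjusted p of any segment gene was 1.00.

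All 9 tested ubiquitin, chaperone and proteasome assembly genes had positive fold changes, with a median of 1.44-fold, and 3 were called. Ttc3 (chromosome 16, 94370618 to 94469343), a ubiquitin ligase that acts on AKT, stood at 1008, 933, 989.7 and 1104 CPM in wild-type and 1408, 1479.8, 1435 and 1484 in Dp16. It rose 1.44-fold (log2 0.53 ± 0.084, adjusted p = 0.0212). Ltn1 (chromosome 16, 87376651 to 87432612), the ligase of ribosome-associated quality control, stood at 43.6, 44.8, 49.7 and 39.3 CPM and 76.1, 72.5, 73.2 and 63.9 and rose 1.61-fold (adjusted p = 0.0212). Dnajc28 (chromosome 16, 91614254 to 91619026), of the J-domain family, stood at 14.02, 16.1, 18.1 and 15.6 CPM and 25.3, 26.1, 24.2 and 24.9 and rose 1.58-fold (adjusted p = 0.0194). Cct8, a subunit of the chaperonin that folds actin and tubulin, was close to the threshold. It stood at 172, 173, 170.5 and 218 CPM and 246, 274, 279 and 279, with wild-type replicate 4 the highest of its group. Its log2 fold change was 0.56 ± 0.10 (adjusted p = 0.0685), and without wild-type replicate 4 it was 0.67 (adjusted p = 0.0116). Usp16, which removes ubiquitin from histone H2A, had 12.9, 13.9, 13.5 and 17.3 CPM and 16.2, 14.8, 15.5 and 21.98, with overlap and a log2 fold change of 0.25 ± 0.17.

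The 12 tested mitochondrial, redox and metabolic genes of the segment were all positive, with a median of 1.38-fold. Gart and B3galt5 were called. Gart (chromosome 16, 91621186 to 91646952), a trifunctional enzyme of purine synthesis, stood at 36.3, 31.3, 35.4 and 34.96 CPM in wild-type and 50.7, 49.1, 49.3 and 49.4 in Dp16 and rose 1.44-fold (adjusted p = 0.0115). B3galt5 (chromosome 16, 96235801 to 96319859), a galactosyltransferase of glycan synthesis, stood at 58.2, 65.2, 67.6 and 59.5 CPM and 104, 97.5, 110.3 and 81.4 and rose 1.57-fold (adjusted p = 0.0439). Its Dp16 replicate 4 was the lowest of the group. Sod1, the cytosolic superoxide dismutase, stood at 220.3, 243, 219 and 308 CPM and 319, 331, 321 and 347. The groups did not overlap, with a narrow gap to wild-type replicate 4, and the log2 fold change was 0.42 ± 0.14 (adjusted p = 0.990). Without the 4 libraries set aside above, of which wild-type replicate 4 is one, it was 0.53 (adjusted p = 0.00513). Sod1 did not pass with wild-type replicate 4, or any other single library, left out alone. The ATP synthase subunit genes Atp5j and Atp5o had log2 fold changes of 0.48 ± 0.15 and 0.46 ± 0.18, and the mitochondrial ribosomal genes Mrpl39 and Mrps6 of 0.47 ± 0.10 and 0.28 ± 0.20. Without wild-type replicate 4, Mrpl39 had 0.56 (adjusted p = 0.0319). Cbr3, a carbonyl reductase, had 0.65 ± 0.20.

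All 6 tested genes of membrane traffic were positive, with a median log2 fold change of 0.59, and only Tmem50b was called. Tmem50b (chromosome 16, 91574503 to 91597800), a membrane protein of the endoplasmic reticulum and Golgi, stood at 88.8, 87.1, 91.9 and 95.5 CPM and 131, 139, 135 and 123 and rose 1.45-fold (adjusted p = 0.0439). This call ended in 15 of 25 alternatives. Synj1, the phosphoinositide phosphatase of synaptic vesicle recycling, stood at 545, 434, 544 and 322 CPM and 802, 769, 857 and 675. Wild-type replicate 4 was far below the other wild-type libraries, and the log2 fold change was 0.76 ± 0.18 (adjusted p = 0.270). Itsn1, an endocytic scaffold, had 0.57 ± 0.17. C2cd2, at the end of the segment, stood at 10.9, 12.9, 13.6 and 15.03 CPM and 20.3, 21.5, 21.5 and 18.1, with an adjusted p of 0.0807.

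Of 9 tested adhesion and guidance genes, 8 were positive, with a median of 1.55-fold, and none passed. Ncam2, a neural adhesion molecule, came closest. It stood at 78.8, 74.4, 93.8 and 113 CPM and 131, 137, 156 and 154, with a log2 fold change of 0.68 ± 0.12 (adjusted p = 0.0609). Wild-type replicate 4 was the highest of its group here, and without it the fold change was 0.82 (adjusted p = 0.00888). Dscam, which guides dendrite and axon spacing, stood at 107, 84.5, 95.4 and 55.7 CPM and 134, 144, 152 and 115. For this gene wild-type replicate 4 was the lowest, and the log2 fold change was 0.68 ± 0.18 (adjusted p = 0.717). Jam2, a junctional adhesion molecule, had 0.63 ± 0.13, and 0.78 without wild-type replicate 4 (adjusted p = 0.0163). Tiam1, an activator of Rac, had 0.80 ± 0.22. Kcnj6, the GIRK2 potassium channel gene, stood at 37.1, 34.3, 47.3 and 11.7 CPM in wild-type and 69.1, 57.9, 75.7 and 42.9 in Dp16, with a log2 fold change of 0.94 ± 0.36. Wild-type replicate 4 was again the lowest. Grik1, a kainate receptor subunit, had 0.51 ± 0.18, and 0.79 without wild-type replicate 4 (adjusted p = 0.0163).

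Of the 105 tested genes, 10 had a fold change below 1, and none of them passed. Clic6, a chloride channel protein, and Kcne2, a potassium channel subunit, are both abundant in choroid plexus and followed the choroid plexus content of the libraries. Kcne2 stood at 0.146, 45.7, 21.2 and 0.136 CPM in wild-type and 23.6, 0.471, 0.434 and 36.8 in Dp16. It was high in wild-type replicates 2 and 3 and Dp16 replicates 1 and 4, the libraries with high choroid plexus markers. Its log2 fold change was -0.49 ± 1.65, with an interval of -4.06 to 3.08. Clic6, itself one of the marker genes, had -0.50 ± 1.28. The part of choroid plexus tissue in these values was not tested. Chodl stood at 0.195, 0.175, 0.134 and 4.26 CPM in wild-type, high in replicate 4 alone, and 0.0562, 0.848, 0.496 and 0.977 in Dp16. Adamts5, a matrix protease gene, had -0.11 ± 0.33. Mx1, Mrap, Gm9843, Gm2541, C130023A14Rik and 4932438H23Rik made up the rest. Gm9843 alone of the 10 had values that hardly overlapped, 7.55, 8.21, 8.77 and 9.51 CPM in wild-type and 6.41, 6.36, 5.33 and 7.65 in Dp16.

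Of the 10 tested segment genes with other functions, 9 were positive, with a median of 1.37-fold, and none passed. Urb1, a ribosome biogenesis factor, had a log2 fold change of 0.72 ± 0.18, Rwdd2b of 0.40 ± 0.11, Donson of 0.71 ± 0.23 and Cyyr1 of 0.48 ± 0.16. Pcp4, a calmodulin regulator abundant in CA2, stood at 69.9, 90.8, 66.9 and 151 CPM in wild-type and 100.5, 119, 91.98 and 156 in Dp16. Replicate 4 was the highest in each group, and the log2 fold change was 0.31 ± 0.38. Of 2 tested extracellular protease genes, Adamts1 had 0.32 ± 0.22 and stood at 24.4, 37.9, 24.1 and 24.2 CPM in wild-type and 55.3, 25.9, 31.1 and 27.6 in Dp16, with overlap.

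The fitted interval of each gene was set against both 0 and the log2 of 1.5. The 95% interval lay above 0 in 66 of the 105 segment genes (62.9%, beside 1.5% of all genes tested) and held the log2 of 1.5 but not 0 in 65. It held both values in 36, among them abundant genes such as Clic6, Adamts1 and Pcp4. It lay below the log2 of 1.5 in 4 and above it in 0. The SE was smaller in abundant genes. Among the 68 segment genes of at least 10 CPM, 66 were positive and the median was 1.44-fold. In 48 of them all 4 Dp16 libraries lay above all 4 wild-type libraries. That share was 1.37% over all genes tested and was not computed over all genes of at least 10 CPM. From the 17 genes below 0.5 RPKM through the 15 up to 2 RPKM and the 33 up to 10 RPKM to the 40 above, the median SE was 0.52, 0.28, 0.17 and 0.15. The SD of log2 fold changes over genes in these classes was 0.69, 0.40, 0.17 and 0.30, with Clic6 and Kcne2 in the last class.

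**Figure D3:**
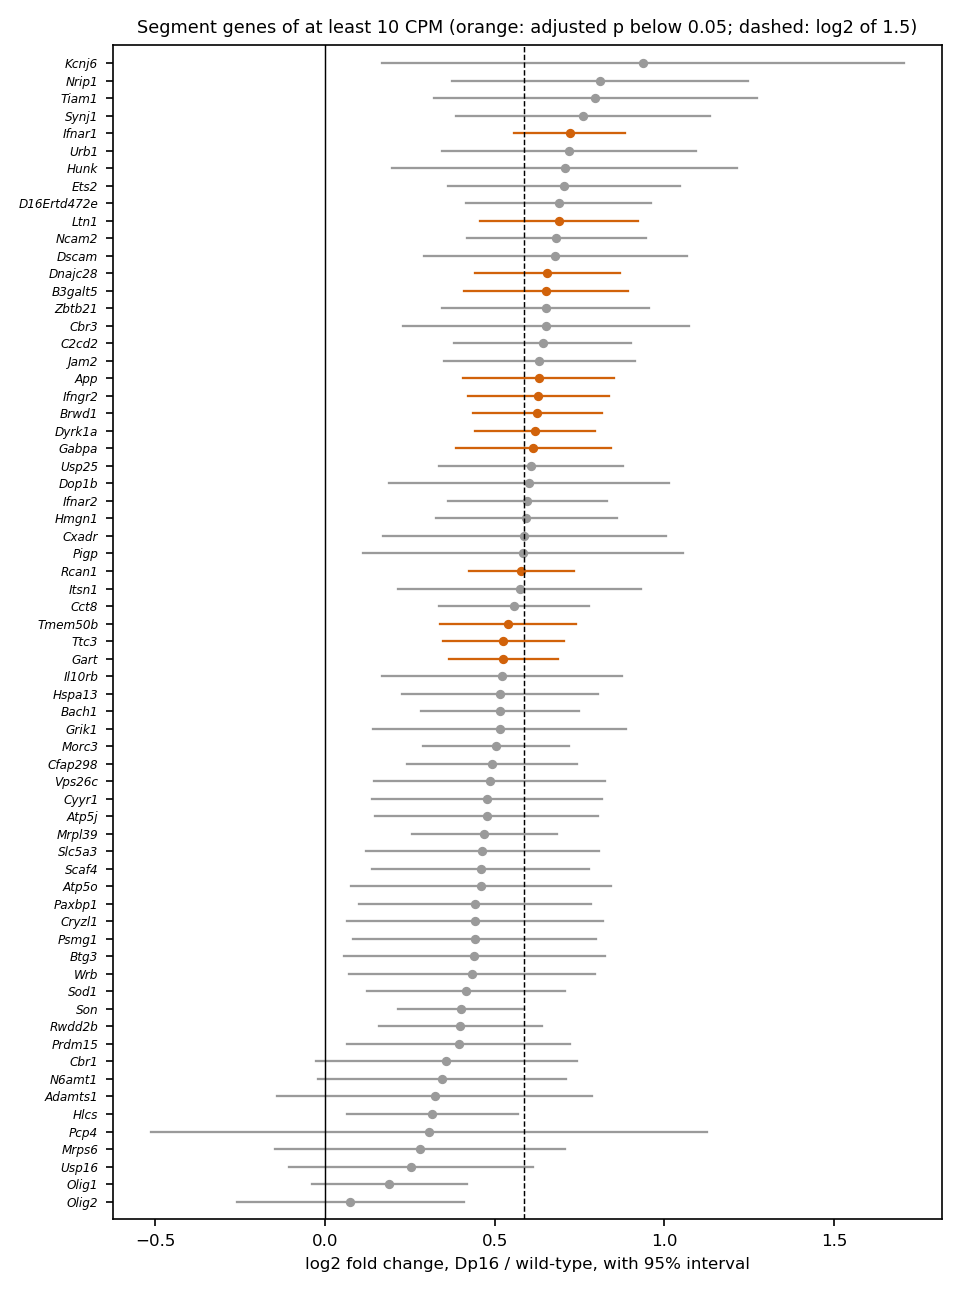
Log2 fold change with its 95% interval for segment genes of at least 10 CPM, ordered by fold change, with orange for an adjusted p below 0.05; Clic6 and Kcne2, whose intervals run past the axis, are left out. The dashed line is the log2 of 1.5, and Olig1, Olig2 and Hlcs are the genes drawn whose intervals end to its left.

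Fold changes outside the segment varied with gene length. Among genes outside the segment the median log2 fold change was -0.096 in the shortest of 5 equal classes by length and 0.054 in the longest. In the segment it was 0.44, 0.52, 0.44, 0.50 and 0.63 from the shortest class to the longest, over 22, 23, 14, 15 and 31 genes, with no steady order. Per library, the level of the shortest class outside the segment was -0.062, -0.024, -0.11 and 0.21 in wild-type and -0.11, -0.076, -0.14 and 0.021 in Dp16. Wild-type replicate 4 was the highest and the groups overlapped. The part of gene length or RNA quality in the fold changes of single genes was not tested.

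Outside the segment 1 gene passed in edgeR with all 16 libraries and the filter on low counts. The agouti gene a (chromosome 2, 154791402 to 155051012) encodes a signalling protein that blocks the melanocortin receptor of pigment cells, and C57BL/6J mice carry a nonfunctional allele of it. It had 0 counts in all 4 wild-type libraries and 36, 54, 31 and 45 counts in Dp16 replicates 1 to 4. In 5xFAD it had 0, 0, 0 and 3 counts, and in 5xFAD-Dp16 42, 57, 30 and 53, so that every library with the duplication stood above every library without it. On raw totals Dp16 had 2.03 CPM over the group, at least 59.6-fold higher than the 0.0341 CPM to which 3 counts over all wild-type libraries correspond (adjusted p = 0.00207). Eif2s2, a translation initiation factor gene that overlaps a on the other strand, had a log2 fold change of -0.11 ± 0.18. Strain background and the duplication cannot be told apart for this gene or for any other gene of this comparison, because the strain of the Dp16 mice is not given. The counts of a separated 5xFAD-Dp16 from 5xFAD as well, so the second pair does not tell them apart either.

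Cbs had the smallest p of the 8 lower genes named outside the segment. It encodes cystathionine beta-synthase, which takes homocysteine into cysteine synthesis, and its human orthologue is on chromosome 21, but the mouse gene lies outside the segment (chromosome 17, 31608894 to 31637238) and is not duplicated. It stood at 37.1, 28.7, 31.8 and 27.3 CPM in wild-type replicates 1 to 4 and 23.8, 15.6, 18.05 and 17.9 in Dp16. Every Dp16 library was below every wild-type library. The log2 fold change was -0.73 ± 0.14, or 0.604-fold, with an adjusted p of 0.0912 in edgeR and 0.00130 in DESeq2. Without the 4 libraries set aside above it was -0.80 (adjusted p = 0.0117), and without Dp16 replicate 1 it was -0.87 (adjusted p = 0.0489). In 5xFAD-Dp16 against 5xFAD the log2 fold change was -0.40 ± 0.15. The 12 other tested genes of the methionine and transsulfuration list had no call, and the list had 7 positive and 6 negative fold changes and a median of 0.022.

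Pik3r3, a regulatory subunit of PI3-kinase, stood at 35.5, 37.2, 38.5 and 44.7 CPM in wild-type and 28.6, 29.6, 28.6 and 28.7 in Dp16. The 4 Dp16 libraries lay close together and all below wild-type. The log2 fold change was -0.43 ± 0.095 (adjusted p = 0.197), and in 5xFAD-Dp16 against 5xFAD it was -0.49 ± 0.10. Rfx5, a transcription factor of MHC class II genes, stood at 17.4, 16.5, 17.1 and 19.97 CPM and 12.1, 11.1, 12.3 and 12.6, with -0.56 ± 0.13 (adjusted p = 0.215) and -0.43 ± 0.13 in the second pair. Srebf1, the factor that drives fatty acid synthesis genes, had -0.29 ± 0.080 here and 0.12 ± 0.086 there. Slc11a1, a metal transporter of phagocytes, had -0.75 ± 0.20, and Tbx1, a developmental transcription factor on the unduplicated part of chromosome 16, -1.85 ± 0.49. Fam181a and Rgl3 completed the 8 lower genes. None of the 8 passed in edgeR with all 16 libraries and the filter on low counts.

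Among the higher genes named outside the segment by smallest p, a was followed by Slc5a5, Lcat, Stc2, Hapln1, Ldb3, Tlr7 and Cfap100. None of the genes after a passed in edgeR with all 16 libraries. Without the 4 libraries set aside above, Slc5a5 (log2 0.62, adjusted p = 0.00233) and Lcat (log2 0.51, adjusted p = 0.0340) passed. Neither passed with any single library left out. Slc5a5, the sodium iodide symporter gene, stood at 29.01, 26.6, 27.6 and 36.04 CPM in wild-type and 38.7, 46.3, 44.4 and 38.3 in Dp16. Lcat, which esterifies cholesterol on lipoproteins, stood at 28.3, 28.3, 32.1 and 32.4 CPM and 39.7, 40.5, 48.4 and 37.4. Hapln1, a link protein of the extracellular matrix around neurons, stood at 28.2, 29.4, 30.7 and 25.3 CPM and 34.4, 40.6, 37.5 and 37.5. In all 3 the groups did not overlap. Tlr7, the endosomal receptor for single-stranded RNA, had a log2 fold change of 0.85 ± 0.24, and -0.41 ± 0.25 in 5xFAD-Dp16 against 5xFAD. Of the 16 genes named outside the segment by smallest p, 8 higher and 8 lower, 12 had the same sign in that second pair, 6 of 8 in each direction. The 12 include a, which was called in both pairs. The share of same signs over all genes was not computed, and the pairs share the fit.

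**Figure D4:**
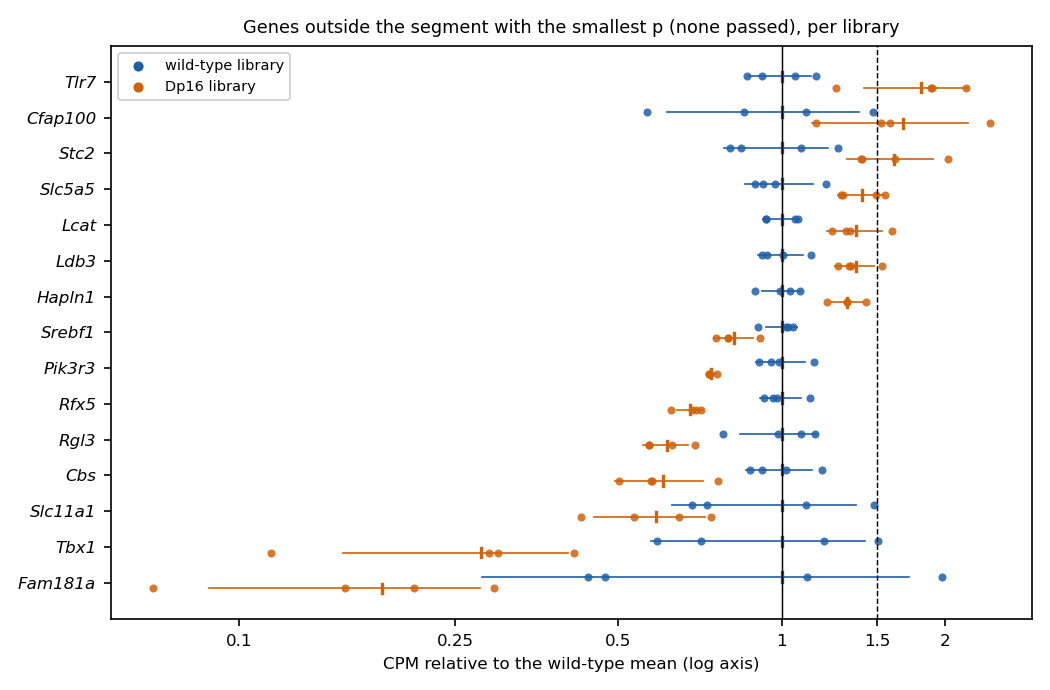
CPM in each library is divided by the wild-type mean of the gene and drawn on a log axis. Shown are 15 of the 16 genes named outside the segment by smallest p (a, at 0 in wild-type, cannot be drawn). Points are libraries, vertical bars the mean and horizontal bars the SD (n = 4). The groups overlap in Cfap100, Slc11a1 and Srebf1 and not in the other 12. These genes were chosen by the smallest p of this same comparison, among genes of at least 1 CPM in the higher group and without clone names. Such a choice favours groups that do not overlap. Over all genes tested, all 4 Dp16 libraries lay above all 4 wild-type libraries in 1.37% and below in 1.55%. None of the 15 passed in edgeR with all 16 libraries and the filter on low counts.

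Apart from the segment's own genes, no gene list examined had a called member in edgeR with all 16 libraries and the filter on low counts. Interferon-stimulated genes, which respond to the receptors described above, had 31 of 39 positive fold changes and a median log2 fold change of 0.14, beside -0.013 for all genes. Their level per library was -0.22, 0.045, 0.052 and 0.18 in wild-type and 0.17, 0.048, 0.053 and 0.43 in Dp16. Dp16 replicate 4 alone lay above all wild-type libraries. Slfn2, Dtx3l and B2m had the smallest p of the list, with log2 fold changes of 1.01 ± 0.30, 0.52 ± 0.20 and 0.23 ± 0.10. The signalling genes outside the segment, from Janus kinases to STAT factors, had 8 of 13 positive and a median of 0.038.

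Glucocorticoid-responsive genes were positive in 15 of 15, with a median of 0.37, and none passed. Their level was -0.16, 0.12, 0.23 and -0.021 in wild-type and 0.23, 0.40, 0.51 and 0.17 in Dp16, with 1 Dp16 library below and 1 level with the highest wild-type library. Hif3a stood at 1.90, 2.88, 5.34 and 2.99 CPM in wild-type and 5.17, 6.12, 7.26 and 5.49 in Dp16. The metallothionein genes Mt2 and Mt1 had log2 fold changes of 0.45 ± 0.16 and 0.27 ± 0.12. In 5xFAD-Dp16 against 5xFAD the same list had 4 of 15 positive and a median of -0.16.

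Immediate-early genes, induced by neuronal activity, had 13 of 20 negative fold changes and a median of -0.17. Their level was 0.53, 0.052, 0.097 and -0.58 in wild-type and -0.039, -0.11, -0.036 and -0.24 in Dp16, so that all Dp16 libraries lay within the wild-type range and wild-type replicate 4 was the lowest. Fos stood at 41.2, 20.1, 15.5 and 32.1 CPM in wild-type and 16.2, 14.4, 11.3 and 18.6 in Dp16, and the groups overlapped. Wild-type replicates 1 and 4 held the high values. Btg2 and Dusp1 had log2 fold changes of -0.95 ± 0.26 and -0.56 ± 0.20. None passed.

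Homeostatic microglia genes had 14 of 16 negative fold changes and a median of -0.16. Their level was -0.024, -0.086, -0.0081 and 0.10 in wild-type and -0.15, -0.18, -0.11 and -0.16 in Dp16, so that the groups did not overlap. P2ry13, a purine receptor, stood at 12.1, 9.78, 9.44 and 10.6 CPM and 8.82, 7.68, 7.32 and 7.65. Trem2, the lipid receptor of microglia, stood at 9.59, 9.38, 9.89 and 12.6 CPM and 6.80, 7.96, 8.87 and 8.95. In both, chosen by the smallest p of the list, the groups did not overlap. All 4 Dp16 libraries lay below all 4 wild-type libraries in 3 of the 16 genes, beside 1.55% of all genes tested. Neither P2ry13 nor Trem2 passed, with log2 fold changes of -0.42 ± 0.17 and -0.34 ± 0.16. Plaque-associated microglia genes had 14 of 20 negative and a median of -0.10. Complement genes had 6 of 13 positive. C4b, a complement component of glia, stood at 38.5, 42.8, 43.4 and 40.8 CPM and 67.2, 58.4, 72.3 and 49.2, without overlap and with a log2 fold change of 0.58 ± 0.26 (adjusted p = 0.990). Astrocyte genes had 11 of 15 negative and a median of -0.098, with Fgfr3 at -0.42 ± 0.13.

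Several lists had nearly uniform signs at small size. Cytosolic ribosomal protein genes, which are short, were negative in 44 of 44, with a median of -0.19. Their level was -0.052, -0.066, -0.18 and 0.32 in wild-type and -0.20, -0.19, -0.29 and -0.057 in Dp16. Nuclear respiratory chain genes were negative in 38 of 39, with a median of -0.13 and levels of -0.071, -0.028, -0.13 and 0.23 and -0.18, -0.11, -0.15 and -0.0079. In both lists wild-type replicate 4 was the highest library, and the other 3 wild-type libraries overlapped with Dp16. Postsynaptic genes were positive in 18 of 18, with a median of 0.17 and levels of 0.39, 0.039, 0.34 and -0.78 and 0.28, 0.20, 0.40 and -0.053. Here wild-type replicate 4 was the lowest library, and the other 3 wild-type libraries lay within the range of the Dp16 libraries. Presynaptic genes were positive in 21 of 22, with a median of 0.13. None of the members passed. The part of wild-type replicate 4 and of gene length in these signs was not tested.

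The other groups of human chromosome 21 orthologues, which Dp16 leaves at 2 copies, had no called member. Of 27 tested on mouse chromosome 10, 10 were positive, with a median of -0.017. Of 13 tested on chromosome 17, Cbs among them, 4 were positive, with a median of -0.096. The median of the segment was 0.52 on the same scale. Mitochondrially encoded genes had 10 of 13 positive and a median of 0.18, heat shock and unfolded protein response genes 9 of 20 and -0.030, cholesterol synthesis genes 15 of 20 and 0.071, and inhibitory synapse genes 9 of 14 and 0.033. Of the members with the smallest p in these and the preceding lists, none passed: Icosl had a log2 fold change of 0.51 ± 0.19, Shmt1 0.67 ± 0.22, Hspa5 -0.34 ± 0.12, Sdf2l1 -0.46 ± 0.17, Hmgcs1 0.30 ± 0.11, Enpp6 -0.51 ± 0.19, Apoe -0.21 ± 0.095 and C3 0.61 ± 0.28.

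**Figure D5:**
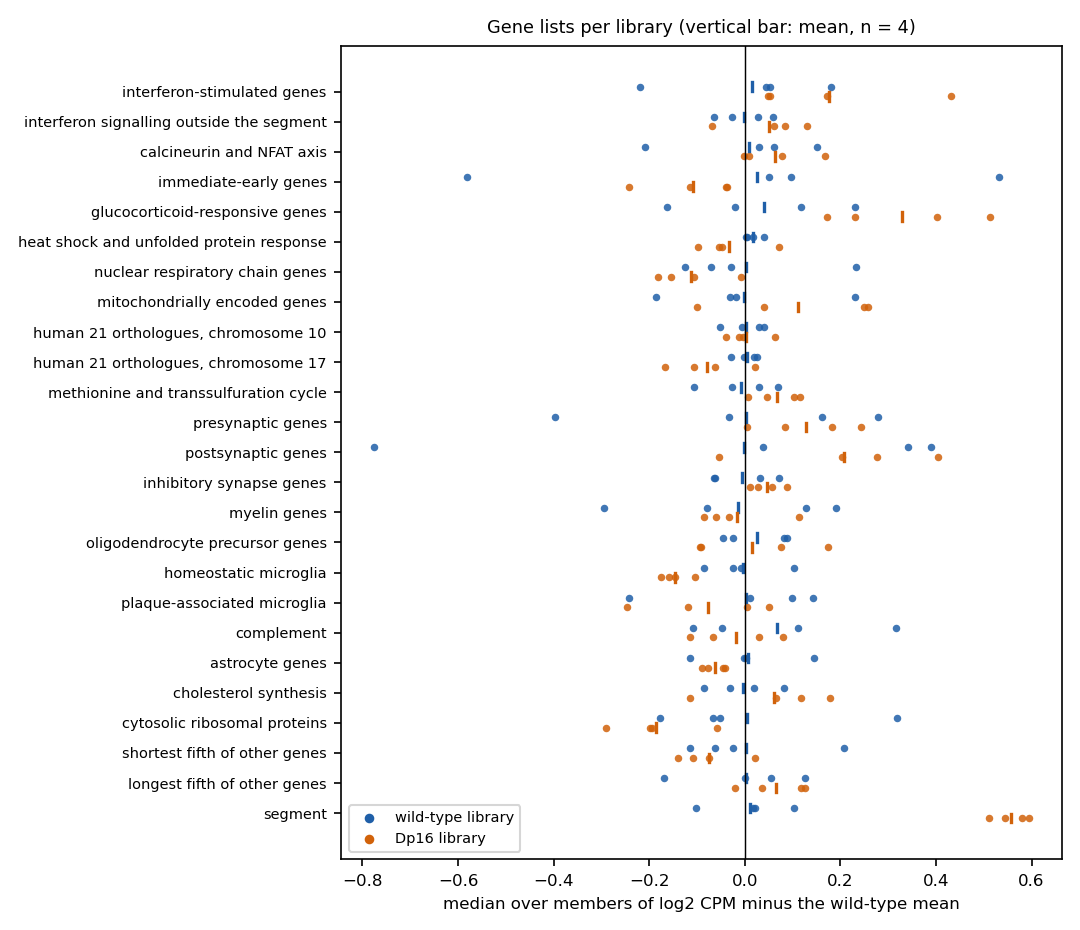
Level of each gene list in each library, as the median over members of log2 CPM minus the wild-type mean, with a vertical bar for the mean of 4 libraries; no test was made on these levels. The segment in the bottom row is the list with the widest gap between Dp16 and wild-type, and wild-type libraries spread most in the postsynaptic and immediate-early genes.

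The effect was compared between the sexes. In the 2 females against 2 females the median log2 fold change of the segment was 0.47, with 95 of 105 genes positive, and in the males it was 0.56, with 94 positive. A test of the difference called 0 of 16416 genes in edgeR and 0 in DESeq2, with 169 (1.03%) at an unadjusted p below 0.05 and none of these in the segment; without the filter on low counts it called 95. The median of the difference, females minus males, was 0.0090 over the 99 segment genes that could be tested. With 2 libraries per sex and genotype, a difference in single genes was not detectable unless large.

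The second pair, 5xFAD-Dp16 against 5xFAD, shares no library with Dp16 and wild-type, but it shares the fit: the spread and, since the cross is all male, the sex term. It had 9 called genes (0.0539%), 8 of them in the segment. Ifnar1, Rcan1, Dyrk1a, Gart, Dnajc28, Ifngr2, Gabpa and a were called in both pairs. C2cd2 passed in the second pair, with an adjusted p of 0.0807 in Dp16 against wild-type. The segment median was 1.45-fold there, beside 1.43-fold here, and 97 of 105 genes were positive. Ifnar1 stood at 35.7, 37.7, 33.6 and 38.2 CPM in 5xFAD and 56.8, 54.2, 51.2 and 55.1 in 5xFAD-Dp16, and Rcan1 at 46.3, 44.8, 50.1 and 45.5 and 71.2, 75.02, 65.7 and 65.3. A test of the difference between the 2 pairs called 0 genes in edgeR and 0 in DESeq2, with 332 (1.99%) at an unadjusted p below 0.05, of which 1 lay in the segment, 4932438H23Rik; without the filter on low counts it called 128. The Spearman correlation of the fold changes in the 2 pairs was 0.26 across all 105 segment genes. Across the 68 of at least 10 CPM it was 0.45 and Pearson's was -0.11, with Kcne2 and Clic6 farthest from the other genes. The genes share the fit and its spread and are not independent replicates.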

How the data were processed

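Polyadenylated RNA of hippocampus was made into 16 strand-specific libraries, 8 of them Dp16 or wild-type, per the labels. Per the submitters' processing notes, reads were handled by HTSeq 0.6.1, SAMtools 1.5, HISAT2 2.1.0 and FastQC 0.11.5 on build GRCm38; the sources used here do not give their settings, strand included. The authors deposited raw counts for 55385 genes and RPKM values made from them. The RPKM values deposited by the authors served only for gene lengths and levels per length. Coordinates came from GENCODE M21 (55144 identifiers matched) and promoter windows from RefSeq.

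Counts were tested with edgeR 4.0.16 (R 4.3.3): default filter for 4 groups, TMM scaling, robust quasi-likelihood fit with genotype and sex over all 16 libraries, and Benjamini-Hochberg adjustment over all 16684 genes. DESeq2 1.42.0 was an alternative. Every adjusted p in the text is from edgeR unless DESeq2 is named. The SE is the log2 fold change divided by the square root of the test statistic, and 95% intervals use its degrees of freedom. Per-library levels of lists used log2 CPM with a prior count of 2. The steps were tested on simulated data. Named genes were all called genes, up to 4 genes per role of the segment with the smallest p, segment genes at or below a fold change of 1 or with an interval below the log2 of 1.5, 3 genes on each side of each end, 8 higher and 8 lower genes outside the segment, and up to 3 genes per list. Those 8 higher and 8 lower genes had the smallest p among genes of at least 1 CPM in the higher group, clone names excluded. Ets2, Hmgn1, Nrip1, Usp16, Atp5j, Atp5o, Mrps6, Pcp4 and Gm49980 fall outside this rule and were named after their values were seen; genes that overlap a named gene are given as such. The segment, its gene roles, the lists and the naming rule were chosen with earlier results of these data known.

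Total counts of 17.4 to 24.1 M per library limit what genes of a few counts can show, and floors of 3 counts cover counting error only. No 2 libraries of a group agreed within sampling noise (smallest chi-square per degree of freedom 8.36). In 16 of 16 libraries Xist matched the labelled sex. Alternatives covered scaling, filters, the samples and terms of the fit, a replicate block and each library left out.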

Additional observations from a re-analysis of the deposited data

Results flagged for a closer look

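Among 306 groups of 4 libraries, 17 had a library far from the other 3 by Dixon's ratio, where chance alone flags about 1 in 20. In Dp16, Gart was at 50.7 CPM in replicate 1 and 49.1 to 49.4 in the others, Ifngr2 at 110.5 in replicate 2 (104 to 105 in the others), Bach1 at 21.4 in replicate 1 (17.4 to 17.9), Cct8 at 246 in replicate 1 (274 to 279) and Pik3r3 at 29.6 in replicate 2 (28.6 to 28.7). The level of mitochondrial, redox and metabolic segment genes was 0.54 in Dp16 replicate 4 and 0.45 to 0.47 in the others.

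In wild-type, 8 of the 11 outlying values were in replicate 4. They were Cct8 at 218 CPM (170.5 to 173 in the others), Mrpl39 at 32.1 (25.8 to 26.2), Chodl at 4.26 (0.134 to 0.195), B230307C23Rik at 3.08 (1.7 to 1.92), Trem2 at 12.6 (9.38 to 9.89), and the levels of CA3 markers at -0.81 (0.24 to 0.34), midbrain and hypothalamus markers at 1.89 (-0.98 to -0.63) and striatum markers at 1.85 (-0.62 to -0.47). The other 3 were Il10rb at 5.60 in replicate 1 (8.34 to 8.64), Adamts1 at 37.9 in replicate 2 (24.1 to 24.4) and A630089N07Rik at 2.45 in replicate 3 (1.49 to 1.53).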

How the results depend on the processing

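In 2488 values of single named genes under alternative settings, 2297 kept both direction and side of the threshold, 99 lost a call, 71 gained one and 21 changed direction. The 14 calls of edgeR became 38 (30 in the segment) with DESeq2, 210 without the filter on low counts (37 in the segment, and 157 of the 210 lower in Dp16), 4 (3) in a fit of the 8 libraries alone and 39 (34) without the 4 libraries set aside for midbrain genes. Leaving out 1 library at a time gave 3 to 17 calls, 2 to 16 of them in the segment, and a segment median of 0.45 (without wild-type replicate 1) to 0.58 (without wild-type replicate 4). The median was 0.45 without the filter and 0.58 without the 4 libraries. Without the filter, the Dp16 effect was called as different between the sexes in 95 genes and as different with the 5xFAD transgenes in 128, against 0 of each with it in edgeR and in DESeq2 (169 and 332 at an unadjusted p below 0.05 in edgeR); the cause of these changes was not tested. Scaling by RLE or by the upper quartile, a minimum of 1 CPM and a fit without sex gave 17, 13, 16 and 17 calls. Replicate numbers did not pair the libraries: same-numbered wild-type and Dp16 libraries had correlations of deviations of -0.27, -0.35, 0.083 and 0.20, and with the replicate block 19 genes were called (18 in the segment), with a segment median of 0.53. Directions that turned when 1 library was left out were those of Clic6 (-1.02 to 0.50), Kcne2 (-1.26 to 1.39), Adamts5 (-0.24 to 0.026), C130023A14Rik (-1.11 to 0.32), Chodl (-0.90 to 1.78), Mrap (-0.52 to 0.13), 4932438H23Rik (-0.63 to 0.013), Olig2 (-0.0053 to 0.27), Robo1 (-0.014 to 0.23) and Robo2 (-0.00011 to 0.19). Without the 4 libraries, C130023A14Rik had 0.34 and Chodl 1.83. Depth limits genes of a few counts, such as Mx1 with 0 to 7 counts per library; intervals that held both no change and a 1.5-fold rise (36 of the 105 segment genes) also included abundant genes that varied between libraries, such as Clic6 and Kcne2.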
